A study of Rattus norvegicus with 10 samples.

Results

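The carbon nanosphere (CSP) is a glucose-derived particle that carries TTK21 in this study, a small molecule activating the histone acetyltransferases CBP and p300. What the empty particle did to gene expression was read here from the comparison of SKF+Aβ+CSP slices with SKF+Aβ slices. The members were chosen by treatment label alone and are 4 of the 10 libraries of the series, 2 for each group. Acute hippocampal slices of male Wistar rats aged 5 to 7 weeks received 30 min of basal stimulation and then the drugs, and were frozen 1 h later, after which CA1 was microdissected and its RNA sequenced. SKF+Aβ slices were given SKF, an agonist of the dopamine D1/D5 receptors, together with oligomers of amyloid-beta (Aβ) at 0.2 μM. SKF+Aβ+CSP slices were given the same agonist and oligomers, with empty CSP at 0.36 μg/ml. The other groups were SKF alone, SKF+Aβ with CSP-TTK21, and CSP-TTK21 alone without SKF or Aβ. Each library pooled 2 slices from 2 biological samples. Slices with CSP and neither SKF nor Aβ are not analysed here, so the values describe the particle on an SKF+Aβ background only.

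Particles that reach brain tissue are taken up by endocytosis and phagocytosis, mainly by microglia and vascular cells, and pass to lysosomes. Cells that sense foreign material or damage can switch on NF-κB, which drives cytokines and adhesion molecules, and interferon signalling, in which STAT and IRF factors bind response elements in the promoters of antiviral genes. In a hippocampal slice the cutting itself can also provoke cytokines and immediate early genes, and no uncut tissue is among these libraries.

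Total counts were between 6753742 and 8473407 per library. CPM are counts relative to the library total, and the values given below are scaled with TMM factors. Without that scaling 3 counts corresponded to between 0.354 and 0.444 CPM. The 2 SKF+Aβ libraries differed from each other more than counting noise allows, as their chi-square divided by its degrees of freedom was 9.13, and the 2 SKF+Aβ+CSP libraries likewise at 4.98. The root mean square difference in log2 CPM was 0.51 between the SKF+Aβ libraries and 0.39 between the SKF+Aβ+CSP libraries, and it was between 0.40 and 0.46 for the 4 pairs across the groups, so libraries of different treatment lay no farther apart than the SKF+Aβ replicates. Among markers of the dissected region, Wfs1, which is enriched in CA1 pyramidal neurons, stood at 372 and 113 CPM in SKF+Aβ and at 152 and 187 CPM in SKF+Aβ+CSP, and Fibcd1, another CA1 marker, had 0 counts in every library. Prox1, the transcription factor of dentate granule cells, was present at 248 and 167 CPM in SKF+Aβ and 184 and 194 CPM in SKF+Aβ+CSP. The CA1 marker Wfs1 was thus found in all 4 libraries with a wide spread between the SKF+Aβ replicates, and a marker of dentate cells was found beside it.

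No gene of the 15032 tested passed the test of SKF+Aβ+CSP against SKF+Aβ. With edgeR's quasi-likelihood test and Benjamini-Hochberg adjustment the called share was 0%, both with and without a log2 fold change limit of 1.5, and the lowest adjusted p was 0.9997. At an unadjusted p under 0.05 there were 328 genes, 2.18% of those tested, beside 4.91% on simulated counts with no gene changed. Of the 328, 245 (1.63%) were higher and 83 (0.552%) were lower with CSP. Restricting these to a log2 fold change beyond 1 left 73 higher (0.486%) and 24 lower (0.160%). That split rested on SKF+Aβ replicate 2, since without it 115 genes were higher and 125 lower, while without SKF+Aβ replicate 1 the counts were 241 and 41. DESeq2 called 1 gene and limma called 0. Across all genes the median log2 fold change was -0.01 and 48.4% of genes were above 0. By the study's methods the libraries of a group are biological replicates, and the p-values measure the spread between these pools of slices.

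The intervals show how large a difference these data leave room for. For 11320 genes (75.3%) the whole 95% interval of the log2 fold change lay within 1 unit of 0, so that a change beyond 2-fold was outside the interval, and for 5602 genes (37.3%) it lay within 0.5. Of the 9725 genes with a mean of at least 10 CPM, 9465 (97.3%) were held within 1 unit. The median half-width was 0.45, against a median absolute log2 fold change of 0.12.

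**Figure D1:**
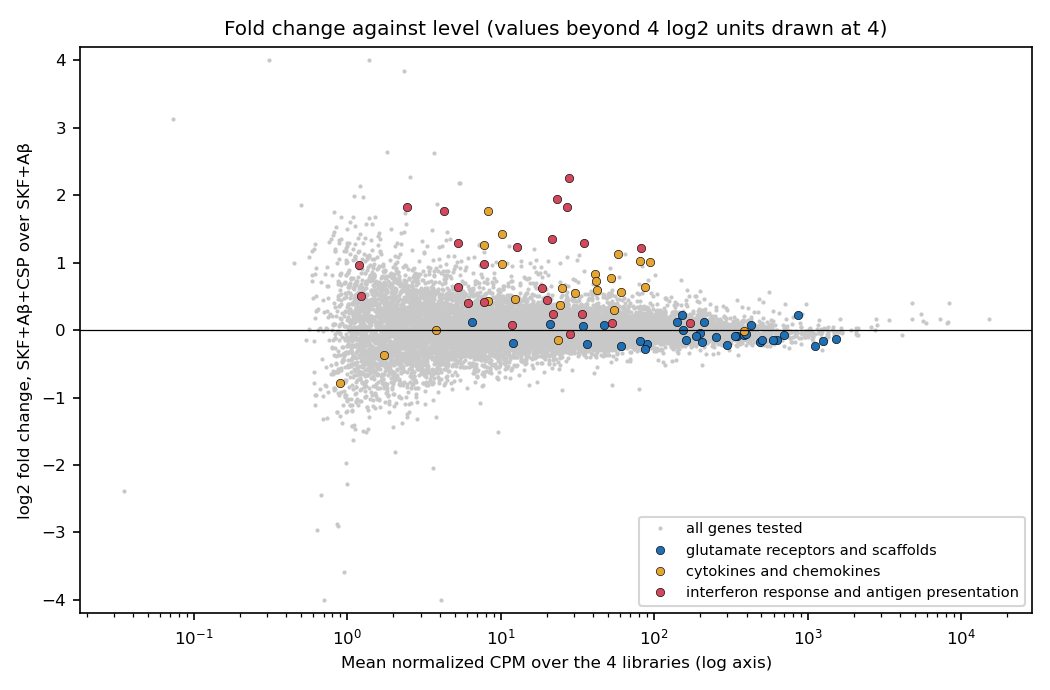
Log2 fold change of SKF+Aβ+CSP over SKF+Aβ for each gene tested (vertical axis) against its mean normalized CPM over the 4 libraries (horizontal axis, log scale); 3 gene lists are coloured. The glutamate receptor genes lie close to 0, while interferon-response and cytokine genes lie mostly above it, with Rsad2 the highest of the coloured genes at 2.25.

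Genes induced by interferon headed the list by p-value. Of the 12 genes with the smallest unadjusted p among those higher with CSP, Ifit2, Ifi44, Ifit3, Rsad2 and Mx1 belong to the interferon list, and Cxcl11 encodes a chemokine that interferons induce. Promoters of genes induced by interferon are shown because an interferon-stimulated response element is the feature by which such genes are usually recognised. Windows from 250 bases before to 50 bases after the transcription start, 300 bases in all, were taken from RefSeq annotation of the rat assembly GRCr8 for 4 members of the interferon list that hold the core of that element, GAAA followed after any 2 bases by a second GAAA, searched on both strands. Each window is written 5′ to 3′ on the strand of its gene, with matches in capitals. In each of the 4 the match lay on the opposite strand and therefore appears as its reverse complement.
Ifit3 (chr1:241527076-241527375, plus strand): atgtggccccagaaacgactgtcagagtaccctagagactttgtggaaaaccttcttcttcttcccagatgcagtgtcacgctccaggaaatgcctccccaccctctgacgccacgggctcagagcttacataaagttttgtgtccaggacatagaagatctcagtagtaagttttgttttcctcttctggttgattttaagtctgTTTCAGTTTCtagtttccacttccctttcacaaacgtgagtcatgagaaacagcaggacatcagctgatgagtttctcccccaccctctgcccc
Rsad2 (chr6:48788071-48788370, minus strand): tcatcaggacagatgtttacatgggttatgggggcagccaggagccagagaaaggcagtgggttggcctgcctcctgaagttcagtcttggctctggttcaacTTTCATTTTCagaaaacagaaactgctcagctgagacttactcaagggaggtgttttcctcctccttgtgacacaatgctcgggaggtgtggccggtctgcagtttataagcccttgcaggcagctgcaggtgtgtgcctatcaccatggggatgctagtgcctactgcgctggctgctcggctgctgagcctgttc
Ifi44 (chr2:243303791-243304090, minus strand): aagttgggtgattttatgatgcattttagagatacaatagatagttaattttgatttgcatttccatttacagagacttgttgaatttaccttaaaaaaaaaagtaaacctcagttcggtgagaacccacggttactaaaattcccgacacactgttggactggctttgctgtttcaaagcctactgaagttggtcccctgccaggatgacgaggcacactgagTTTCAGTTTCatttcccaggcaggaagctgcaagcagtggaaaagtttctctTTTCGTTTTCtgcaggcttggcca
Gbp2 (chr2:234005477-234005776, plus strand): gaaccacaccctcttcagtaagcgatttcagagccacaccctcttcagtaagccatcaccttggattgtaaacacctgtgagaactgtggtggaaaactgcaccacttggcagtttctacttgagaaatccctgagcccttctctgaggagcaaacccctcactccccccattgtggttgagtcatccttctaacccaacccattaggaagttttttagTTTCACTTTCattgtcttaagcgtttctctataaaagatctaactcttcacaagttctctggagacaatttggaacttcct
The match began 44 bases before the start in Ifit3, 147 bases before it in Rsad2 and 31 bases before it in Gbp2. Ifi44 held 2 matches, one 26 bases before the start and the other 26 bases past it. The motif was found in 1312 of all 33469 windows, 3.92%. Of the 12 higher genes with the smallest p, 11 had a window, and 5 of their 14 windows held the motif. Mx1 and Cxcl11 had windows without it, and Gbp2, shown here, is not among the 12. Among the 24 tested members of the interferon list, 18 had a window and 10 of these held the motif. It was in 5 of 7 windows of members with an unadjusted p under 0.05 and in 5 of 11 windows of the other members, among them B2m, Irf7 and Tap1. Ifit2, Isg15, Mx2, Usp18 and Ifit1 are among the members without a window. These matches are letters in a window and no measurement of binding.

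Ifit2 (ENSRNOG00000036604), whose protein binds viral RNA and blocks its translation, read 13.7 and 9.99 CPM in the SKF+Aβ libraries and 47.0 and 36.9 CPM in the SKF+Aβ+CSP libraries. Both CSP libraries lay above both others, and also above every one of the other 6 libraries, of which SKF replicate 1 came nearest at 26.0 CPM. The fold was 3.54, a log2 fold change of 1.82 ± 0.34 (SE, n = 2 against 2) with a 95% interval from 1.09 to 2.56 and an adjusted p of 0.9997 by edgeR. With the replicate number as a block edgeR gave an adjusted p of 0.00883 and DESeq2 one of 0.00319, and over all alternatives it ran from 4.24e-13 without a filter on low counts to 1, so that the call of this gene depends on the model.

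Ifit3 (ENSRNOG00000022839), its neighbour in the same antiviral family, read 9.22 and 9.99 CPM without CSP and 41.7 and 32.5 CPM with it. The groups did not overlap, although SKF replicate 1 stood at 35.3 CPM, between the 2 CSP libraries, and SKF replicate 2 at 10.1 CPM. The log2 fold change was 1.95 with an interval from 0.99 to 2.91, and a fit of only the 4 libraries gave an adjusted p of 0.0355, within a range over the alternatives from 9.70e-14 without the filter to 1. Rsad2 (ENSRNOG00000007539) encodes viperin, an enzyme that makes a chain-terminating nucleotide against viruses. It read 13.4 and 5.81 CPM without CSP and 48.8 and 43.2 CPM with it, a log2 fold change of 2.25 with an interval from 1.01 to 3.49. Here too SKF replicate 1, at 35.9 CPM, was far above SKF replicate 2, at 10.4 CPM.

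Ifi44 (ENSRNOG00000022218) read 8.80 and 6.41 CPM without CSP and 18.4 and 17.6 CPM with it, and the next highest library of the series was SKF replicate 1 at 12.2 CPM. Its log2 fold change was 1.24 with an interval from 0.67 to 1.81. Mx1, a GTPase that traps viral nucleocapsids, stood at 1.96 and 1.94 CPM against 6.85 and 6.45 CPM, a log2 fold change of 1.76 from counts of 14 and 13 against 58 and 44. Isg15, the ubiquitin-like modifier, was at 1.12 and 1.04 CPM against 4.61 and 3.08 CPM, with a log2 fold change of 1.82. Its remover Usp18 stood at 3.21 and 2.83 against 7.68 and 7.18 CPM, a log2 fold change of 1.29. In each the libraries with CSP were above those without it, while SKF replicate 1 read 6.08 CPM for Mx1, 5.53 CPM for Isg15 and 8.02 CPM for Usp18, near or above the CSP libraries.

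**Figure D2:**
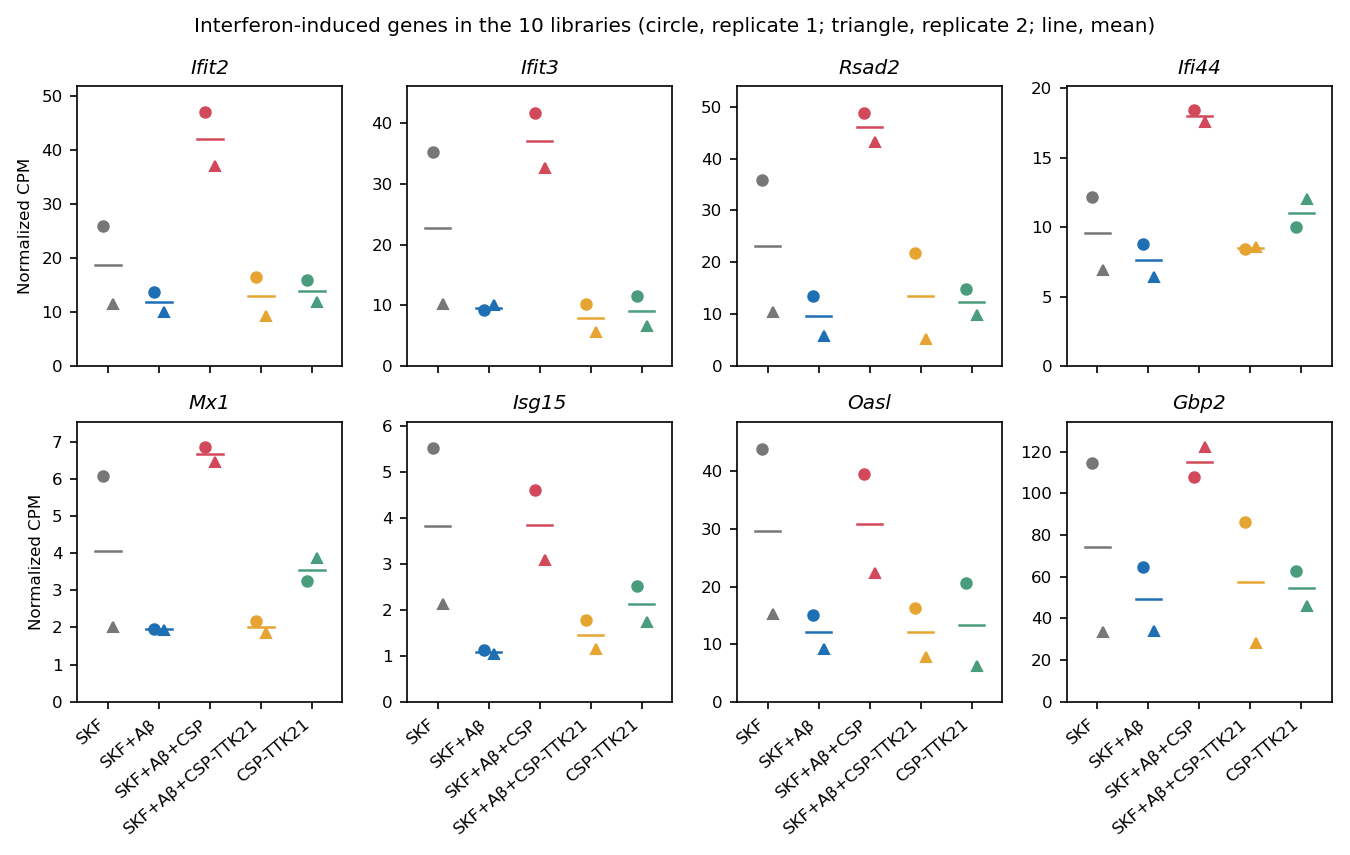
Normalized CPM of 8 interferon-induced genes in each of the 10 libraries by group (circles, replicate 1; triangles, replicate 2; lines, group mean). Both SKF+Aβ+CSP libraries lie above both SKF+Aβ libraries in every panel, and SKF replicate 1 is above SKF replicate 2 in each.

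The gene lists here and below were chosen with earlier results of these data known, so their shares are descriptive and no independent test. Over the interferon and antigen presentation list, 23 of 24 tested members had a log2 fold change above 0, against 48.4% of all genes. The median was 0.81 against -0.01. That median was 1.23 without SKF+Aβ replicate 1 and 0.55 without replicate 2. In 15 members both CSP libraries were above both SKF+Aβ libraries and in 0 members below, where 14.3% and 12.9% of all genes were so placed. An unadjusted p under 0.05 was reached by 11 members, all higher with CSP, against 1.63% of all genes, and 0 members were called at an adjusted p. The remaining members of the 11 were Mx2 at 0.63, Oasl at 1.35, Gbp2 at 1.22 and Gbp5 at 1.29 on the log2 scale, the last pair encoding guanylate-binding GTPases that interferon-gamma induces. Without SKF+Aβ+CSP replicate 1 Mx2 was 0.27 and Oasl 0.87, and Gbp5 was 2.20 without SKF+Aβ replicate 1 and 0.75 without replicate 2. Gbp2 showed 64.5 and 34.0 CPM without CSP and 108 and 122 CPM with it. The antigen presentation genes of the list were closer to 0. B2m, the light chain of class I molecules, had a log2 fold change of 0.10 with an interval from -0.33 to 0.53, and RT1-A1, a class I heavy chain, had 0.08. Tap1, the peptide transporter, had 0.45 and Ifi27 was the lowest at -0.05. The interferon genes themselves are not on the list, and 7 listed members, among them Oas1a and Psmb8, were below the filter on low counts.

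The height of these genes in CSP slices was compared with the other groups. Both CSP libraries were above both SKF+Aβ+CSP-TTK21 libraries in 16 of the 24 members and above both CSP-TTK21 libraries in 13, where 22.8% and 21.6% of all genes were so placed. Against SKF alone they were above both libraries in 5 members, 27.1% of all genes being so placed, and above all 8 other libraries in 4, against 1.89%. The 2 SKF libraries themselves differed in this list, with replicate 1 above replicate 2 in 16 of 24 members against 48.8% of all genes. The summed level of the list was 525 and 454 CPM in SKF+Aβ, 819 and 721 CPM in SKF+Aβ+CSP, and 755 and 571 CPM in SKF. It was 587 and 505 CPM in SKF+Aβ+CSP-TTK21 and 567 and 596 CPM in CSP-TTK21. One SKF library without particle thus reached the range of the CSP libraries. The other comparisons use the same CSP libraries and are given as positions only.

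Chemokines and cytokines lay in the same direction, with smaller values. Of 24 tested genes 20 were above 0, where 48.4% of all genes were, and the median log2 fold change was 0.61. It was 0.35 without SKF+Aβ+CSP replicate 1. In 15 members both CSP libraries were above both SKF+Aβ libraries and in 1 below, beside 14.3% and 12.9% of all genes. Of these 24, 7 reached an unadjusted p under 0.05, all higher with CSP, beside 1.63% of all genes. Cxcl11, a ligand of CXCR3 on T cells, read 5.73 and 1.64 CPM without CSP and 11.6 and 13.9 CPM with it, a log2 fold change of 1.77 with an interval from 0.89 to 2.65. It rested in size on the SKF+Aβ replicates, being 2.95 without replicate 1 and 1.15 without replicate 2. The 6 libraries of the remaining groups were at 5.61 CPM or below. Cxcl10, a second ligand of that receptor, stood at 50.4 and 22.5 CPM against 100 and 60.4 CPM, a log2 fold change of 1.14, and SKF replicate 1 at 95.7 CPM was within that range. Without SKF+Aβ replicate 1 the value for Cxcl10 was 1.84 and without replicate 2 it was 0.68. Il6, the acute-phase cytokine, read 33.7 and 25.3 CPM without CSP and 53.3 and 52.2 CPM with it, with a log2 fold change of 0.84 and an interval from 0.01 to 1.66. Il1a, an alarmin, read 30.6 and 37.1 CPM against 54.5 and 47.9 CPM, at 0.60. Ccl3 and Ccl4, chemokines of activated microglia, had log2 fold changes of 0.57 and 0.77, and Ccl9 had 0.73. Without SKF+Aβ+CSP replicate 1 these values were 0.18, 0.31 and 0.38. The neutrophil chemokine Cxcl1 read 83.7 and 42.0 CPM without CSP and 149 and 103 CPM with it, a log2 fold change of 1.01 whose interval ran from -0.38 to 2.40. Its SKF libraries stood at 189 and 36.4 CPM, so the spread within SKF exceeded the difference between the groups compared. Its value was 1.59 without SKF+Aβ replicate 1 and 0.60 without replicate 2. The lowest member was Il10, the anti-inflammatory cytokine, at -0.79 with an interval from -2.59 to 1.02, at 1.82 CPM or less in each of the 4 libraries.

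Targets of NF-κB and STAT3 showed the same direction at lower size. Of 27 tested, 25 were above 0, beside 48.4% of all genes, with a median of 0.30 that was 0.49 without SKF+Aβ replicate 1 and 0.13 without replicate 2. In 15 both CSP libraries were above both SKF+Aβ libraries and in 1 below, beside 14.3% and 12.9% of all genes. The 6 with an unadjusted p under 0.05, all higher beside 1.63% of all genes, were the adhesion molecules Vcam1 (0.43) and Icam1 (0.54), the transcription factors Irf1 (0.55) and Relb (0.47), and the feedback inhibitors Nfkbia (0.50) and Tnfaip3 (0.74), each as a log2 fold change. Irf1 was 0.30 without SKF+Aβ+CSP replicate 1. Vcam1 had the narrowest interval of these, from 0.14 to 0.73, at 46.5 and 43.4 CPM without CSP and 61.4 and 60.1 CPM with it. Nfkbia stood at 166 and 138 CPM against 222 and 208 CPM, while both SKF libraries, at 266 and 223 CPM, were as high or higher. Over the list both CSP libraries were above both SKF libraries in 3 of 27 members, a smaller share than the 27.1% of all genes, and SKF replicate 1 was above replicate 2 in 23 of 27, beside 48.8% of all genes. The corresponding counts for the cytokine list were 4 and 20 of 24.

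Outside these lists the leading higher genes included further members of interferon-regulated families. Slfn3 and Slfn5 encode Schlafen proteins. Slfn3 stood at 2.51 and 1.34 CPM without CSP and 8.27 and 9.53 CPM with it, a log2 fold change of 2.19, and Slfn5 at 10.1 and 9.84 against 25.8 and 20.1 CPM, at 1.21. Apol9a, an apolipoprotein L gene, had a log2 fold change of 2.27 from counts of 7 and 5 against 31 and 33. RT1-CE16 is a class I gene of the rat MHC, with 1.82 and 1.49 against 8.03 and 4.10 CPM and a log2 fold change of 1.88. Its SKF libraries, at 10.5 and 6.41 CPM, and CSP-TTK21 libraries, at 7.03 and 4.68 CPM, were in or above the range of the CSP libraries. The class I, Schlafen and apolipoprotein L genes have close copies in the rat genome, and how reads were shared among copies is not given in the sources used here. Lama3 and Itga5 encode adhesion proteins. Lama3, a laminin chain, read 4.33 and 4.17 CPM without CSP and 8.86 and 11.9 CPM with it, at 1.28. Itga5, the integrin that binds fibronectin, read 11.5 and 13.9 against 22.8 and 25.5 CPM, at 0.93, and reached 27.5 CPM in SKF replicate 1.

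Among genes with an unadjusted p under 0.05 and a log2 fold change beyond 1, those lower with CSP were fewer in the fit of all 10 libraries (24 against 73) but not without SKF+Aβ replicate 2 (125 against 115). The 12 with the smallest p ran from SNORD113 at -2.05 to Nrn1 at -0.34 on the log2 scale. SNORD113, a box C/D small nucleolar RNA of an imprinted cluster with many copies, read 8.10 and 3.58 CPM without CSP and 0.83 and 2.05 CPM with it, yet the SKF libraries were at 0.138 and 0.668 CPM, so that SKF+Aβ was the higher group of the series. Without SKF+Aβ replicate 1 its log2 fold change was -1.34. Nrn1, the neurite growth factor neuritin, read 188 and 190 CPM without CSP and 147 and 152 CPM with it, and its interval, from -0.59 to -0.09, was among the narrowest. SKF slices read 134 and 142 CPM for Nrn1, also below SKF+Aβ. Itga7, the laminin-binding integrin alpha chain, read 29.8 and 27.3 against 19.6 and 20.1 CPM, at -0.52, and here the CSP libraries were the lowest of the 10. The CSP libraries were likewise the lowest for Tango6 (12.9 and 15.6 against 9.45 and 7.92 CPM, at -0.71), Spata25 (-1.44), Cd101 (-1.49), LOC100911156 (-0.81) and Pafah1b3 (-1.09). Cd101, an inhibitory receptor of leukocytes, rested on counts of 15 and 11 against 5 and 5. Dpyd, which degrades pyrimidines, had -0.49, and Unc5d, a netrin receptor, had -0.45, with SKF slices near the level of CSP slices in both. Unc5d was -0.28 without SKF+Aβ replicate 2. Slc24a4, a sodium-calcium exchanger, had -0.63, but SKF+Aβ replicate 1 alone stood out at 62.3 CPM against 35.8 CPM in replicate 2 and 34.5 and 28.9 CPM with CSP, and without that library the value was -0.17. Rplp1, a ribosomal stalk protein with processed copies in the genome, had 89.7 and 116 against 62.4 and 50.1 CPM, at -0.87. Its replicates lay far apart in other groups, at 70.3 and 148 CPM in SKF+Aβ+CSP-TTK21 and 126 and 73.9 CPM in CSP-TTK21.

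**Figure D3:**
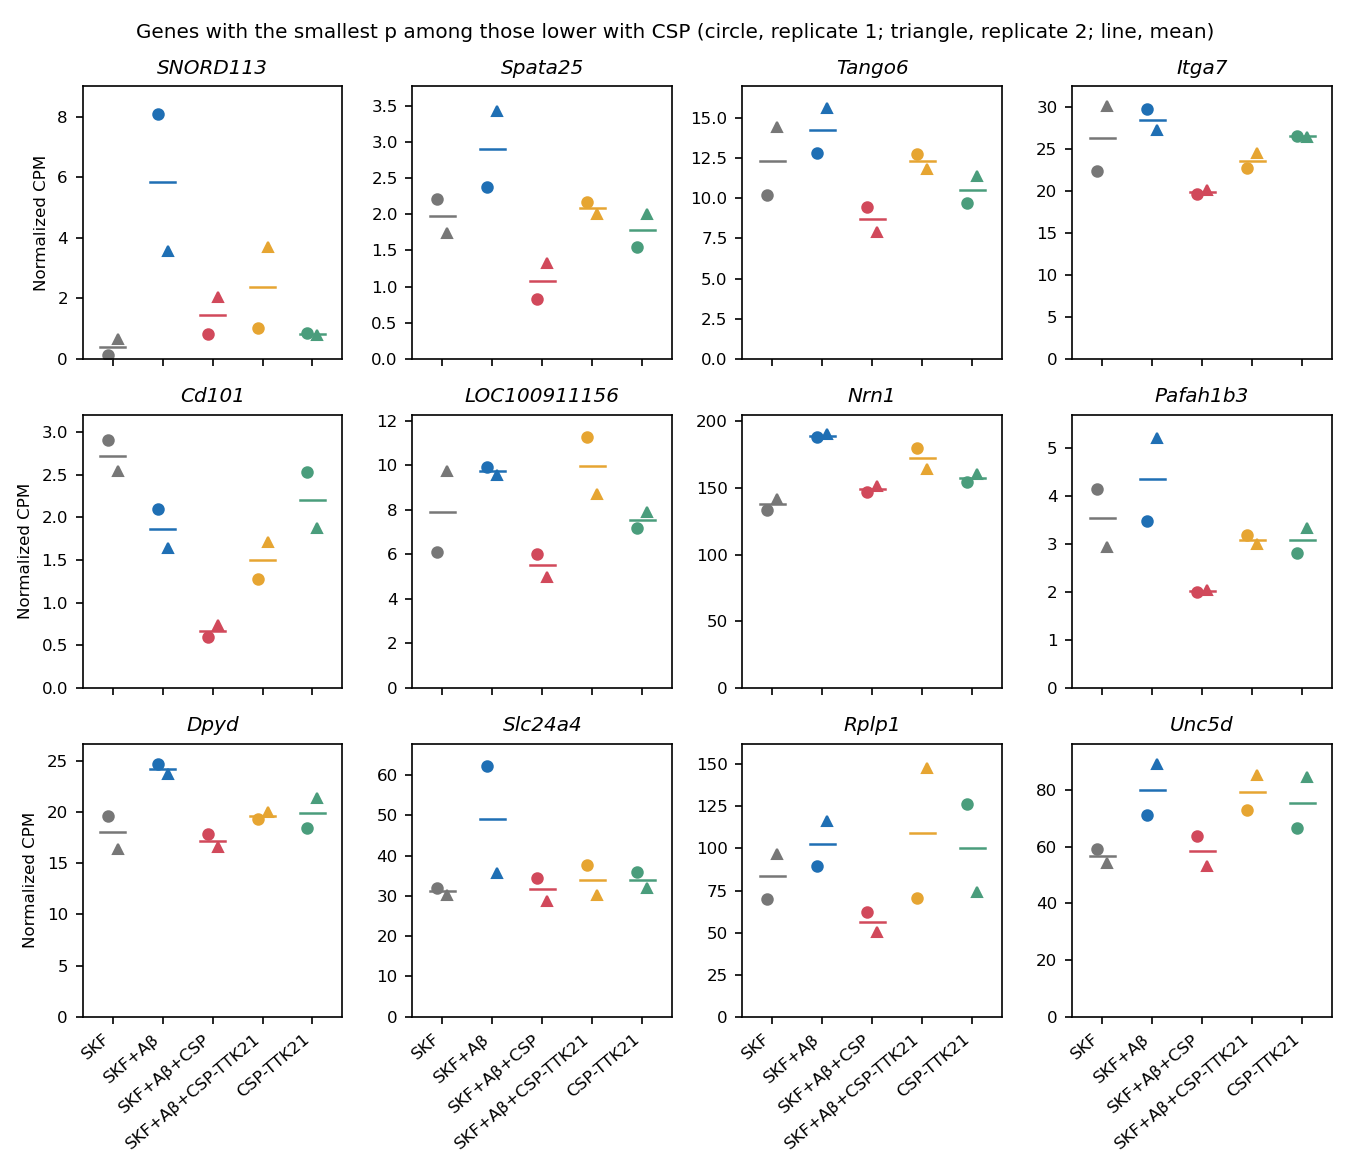
Normalized CPM of the 12 genes with the smallest p among those lower with CSP, in the 10 libraries by group (circles, replicate 1; triangles, replicate 2; lines, group mean). Both SKF+Aβ+CSP libraries lie below both SKF+Aβ libraries in each panel, while for SNORD113, Nrn1, Dpyd and Unc5d the SKF libraries lie at or near the CSP level or below it.

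Genes below a mean of 1 CPM rested on small counts. LOC680693 had counts of 2 and 3 without CSP and 9 and 10 with it, Atg9b, an autophagy protein, 4 and 2 against 15 and 7, and AABR07064257.1 4 and 3 against 10 and 10. In the other direction Slc25a31, an adenine nucleotide carrier of germ cells, had counts of 10 and 6 without CSP and 1 and 2 with it. AABR07004228.1 had 4 and 17 against 3 and 0, and RGD1563668 had 20 and 2 against 2 and 1. In these last genes 1 SKF+Aβ library carried most of the counts.

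Genes for taking up and degrading a particle were balanced in direction, while most inflammasome and cell death genes were above 0. Of 22 tested phagocytosis and scavenger receptor genes 11 were higher and 11 lower, with a median log2 fold change of -0.01. Stab1, a scavenger receptor of macrophages and sinusoidal endothelium, was the only one of the 22 with an unadjusted p under 0.05, where 1.63% of all genes were higher at that level, and read 2.37 and 1.34 CPM without CSP and 4.73 and 5.86 CPM with it, a log2 fold change of 1.49. Its SKF libraries stood at 6.64 and 3.74 CPM. Mertk, the receptor for apoptotic cells, had -0.07 with an interval from -0.45 to 0.31. Of 26 endocytosis genes 13 were higher and 13 lower, and the interval of 25 lay within 1 log2 unit. Pak1, a kinase of macropinocytosis and of dendritic spines, had the only p under 0.05 of the 26, beside the same 1.63%, at 169 and 180 against 213 and 212 CPM, a log2 fold change of 0.29. Of 30 lysosome and autophagy genes 15 were higher and 15 lower, none had a p under 0.05 and 29 were held within 1 unit. Lamp1, a lysosomal membrane protein, read 264 and 263 CPM against 311 and 297 CPM, at 0.21, with an interval from -0.12 to 0.54. In the inflammasome and cell death list 15 of 18 were above 0, with a median of 0.19 that ran from 0.17 to 0.27 as each library was left out. In 7 both CSP libraries were above both SKF+Aβ libraries and in 2 below, beside 14.3% and 12.9% of all genes. Pmaip1, which encodes the death protein Noxa, had the only p under 0.05 of the 18, beside 1.63% of all genes, at 44.7 and 41.0 against 72.2 and 52.8 CPM, a log2 fold change of 0.55 that was 0.30 without SKF+Aβ+CSP replicate 1. Nlrp3, the inflammasome sensor, had 0.61 with an interval from -0.26 to 1.49.

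The medians of the 3 stress response lists lay between -0.03 and 0.08. The Nrf2 and metal-response list had 10 of 26 members above 0, a median of -0.03 and none with a p under 0.05. Hmox1, the haem-degrading enzyme that oxidants induce, read 30.3 and 22.4 CPM without CSP and 30.4 and 20.8 CPM with it, at -0.04 with an interval from -0.55 to 0.48. Nqo1, a quinone reductase, had 0.01. Heat shock genes had 8 of 17 above 0. The small heat shock proteins Hspb1 (0.88) and Cryab (0.48) had a p under 0.05, or 2 of 17 beside 1.63% of all genes higher, Cryab at 51.8 and 54.7 against 68.4 and 80.8 CPM. The integrated stress and unfolded protein response list had 19 of 29 above 0 and a median of 0.08, which ran from 0.02 to 0.11 as each library was left out. In 9 both CSP libraries were above both SKF+Aβ libraries and in 3 below, beside 14.3% and 12.9% of all genes. Its targets Chac1, which degrades glutathione, and Sesn2, which restrains mTORC1, had a p under 0.05 with log2 fold changes of 0.96 and 0.73, or 2 of 29 beside 1.63% of all genes. Chac1 read 7.12 and 11.3 against 13.8 and 22.1 CPM, and its log2 fold change was 0.59 without SKF+Aβ+CSP replicate 2. Hspa5, the endoplasmic reticulum chaperone, stood at -0.09 and Ddit3, which encodes CHOP, at 0.10.

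The particle is made from glucose, and genes of glucose handling were read for that reason. Of 33 tested glucose transport and carbohydrate response genes 15 were higher and 18 lower, with a median of -0.02. Slc2a1, the transporter of the blood-brain barrier and of glia, stood at 96.9 and 79.6 CPM without CSP and 112 and 107 CPM with it, a log2 fold change of 0.31 with an interval from 0.01 to 0.61, which was 0.18 without SKF+Aβ replicate 2. Pdk4, which diverts pyruvate from oxidation, had 0.57, with 25.3 and 37.1 against 58.1 and 34.3 CPM, so its groups overlapped, and its value was 0.14 without SKF+Aβ+CSP replicate 1. Txnip, the classical glucose-induced gene, read 16.3 and 24.7 against 21.9 and 25.8 CPM, at 0.21 with an interval from -0.23 to 0.65. The lowest was the neuronal transporter Slc2a3 at -0.94, from 2.65 CPM or less. Of 28 hypoxia and glycolysis genes 11 were above 0, with a median of -0.05 that was 0.10 without SKF+Aβ replicate 2. Of these 28, 1 had a p under 0.05, Ndrg1 at 0.38, beside 1.63% of all genes higher. Cholesterol and lipid synthesis genes were above 0 in 17 of 23 with a median of 0.06, and all 23 intervals lay within 1 unit. Mitochondrial transcripts were above 0 in 10 of 11, with a median of 0.16 that was -0.05 without SKF+Aβ+CSP replicate 1 and 0.35 without replicate 2. Their summed level was 46495 and 44275 CPM without CSP and 55813 and 45492 CPM with it.

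Differences in glutamate receptor and scaffold genes were held within narrower bounds than those in immediate early genes, of which 17 of 21 had intervals within 1 log2 unit. All 34 glutamate receptor and scaffold genes had such intervals, none had a p under 0.05, and 25 of 34 were below 0 with a median of -0.10, which was -0.04 without SKF+Aβ replicate 2. In 11 of them both CSP libraries were below both SKF+Aβ libraries and in 4 above, against 12.9% and 14.3% of all genes. Gria1, an AMPA receptor subunit, read 712 and 607 CPM without CSP and 570 and 619 CPM with it, at -0.15 with an interval from -0.43 to 0.13. Grin1, the obligate NMDA receptor subunit, read 389 and 394 against 381 and 365 CPM, at -0.07. Shank1, a scaffold of the postsynaptic density, was the highest at 0.22. Immediate early genes had 8 of 21 above 0 with a median of -0.07, which was -0.44 without SKF+Aβ replicate 1 and 0.20 without replicate 2, and none had a p under 0.05. Their replicates differed widely. Fos read 190 and 473 CPM without CSP and 308 and 323 CPM with it, and Arc 220 and 271 against 164 and 220 CPM. Egr4 was the lowest at -0.88, with 20.3 and 45.0 against 12.1 and 23.6 CPM and an interval from -1.85 to 0.09. Among activity-induced effectors 13 of 28 were above 0. Bdnf, the neurotrophin, had -0.12 with an interval from -0.83 to 0.58, and Cyr61, a matrix protein, had the only p under 0.05 of the 28, beside 1.63% of all genes higher, at 0.76, or 0.45 without SKF+Aβ+CSP replicate 1. Of 31 dopamine and cAMP signalling genes 11 were above 0 and 28 were held within 1 unit.

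Further signalling lists had medians near 0. Of 36 TGF-β and Wnt genes 19 were above 0, with a median of 0.05. Of 21 neurotrophin and growth factor genes 9 were above 0. A p under 0.05 was reached by Hbegf (0.34) and Igf2 (0.44), both higher, while Areg, another ligand of the epidermal growth factor receptor, reached it lower, at -1.28, from 1.82 and 2.09 against 0.591 and 1.03 CPM. These are 2 higher and 1 lower of 21, beside 1.63% and 0.552% of all genes. Hbegf was 0.20 without SKF+Aβ replicate 1 and Igf2 0.27 without SKF+Aβ+CSP replicate 2. Of 26 amyloid and Alzheimer disease genes 16 were above 0 with a median of 0.07 and none had a p under 0.05. App, the amyloid precursor, had a log2 fold change of 0.02 with an interval from -0.27 to 0.32, and Bace1, the β-secretase, had 0.12.

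Genes that the study measured by RT-PCR were read in the same libraries. Wnt10b had -0.18 with an interval from -1.21 to 0.86, which at about 2.08 and 1.85 CPM in the group means leaves room for a change in either direction. Tgfb1 had 0.46 with an interval from -0.07 to 1.00, and both its CSP libraries, at 16.9 and 11.6 CPM, were above both SKF+Aβ libraries, at 9.64 and 11.2 CPM, and below both SKF libraries, at 21.8 and 27.0 CPM. Without SKF+Aβ+CSP replicate 1 its value was 0.16. Atf5, a stress transcription factor, had 0.21 with an interval from -0.19 to 0.61, and ran from 0.10 without SKF+Aβ replicate 1 to 0.34 without replicate 2. S100b, an astrocyte protein, had -0.05 with an interval from -0.47 to 0.38. Actb read 1708 and 1654 CPM without CSP and 1684 and 1606 CPM with it. The acetyltransferase genes Crebbp and Ep300, the targets of TTK21, had -0.04 and -0.09, with intervals from -0.29 to 0.21 and from -0.39 to 0.21. The receptor genes Drd1 and Drd5, the targets of SKF, had 0.17 and 0.58 at under 4 CPM, with intervals from -0.58 to 0.92 and from -0.56 to 1.72. With each library left out in turn Drd1 ran from 0.06 to 0.27, and Drd5 from -0.05 without SKF+Aβ+CSP replicate 1 to 1.35 without SKF+Aβ replicate 2.

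**Figure D4:**
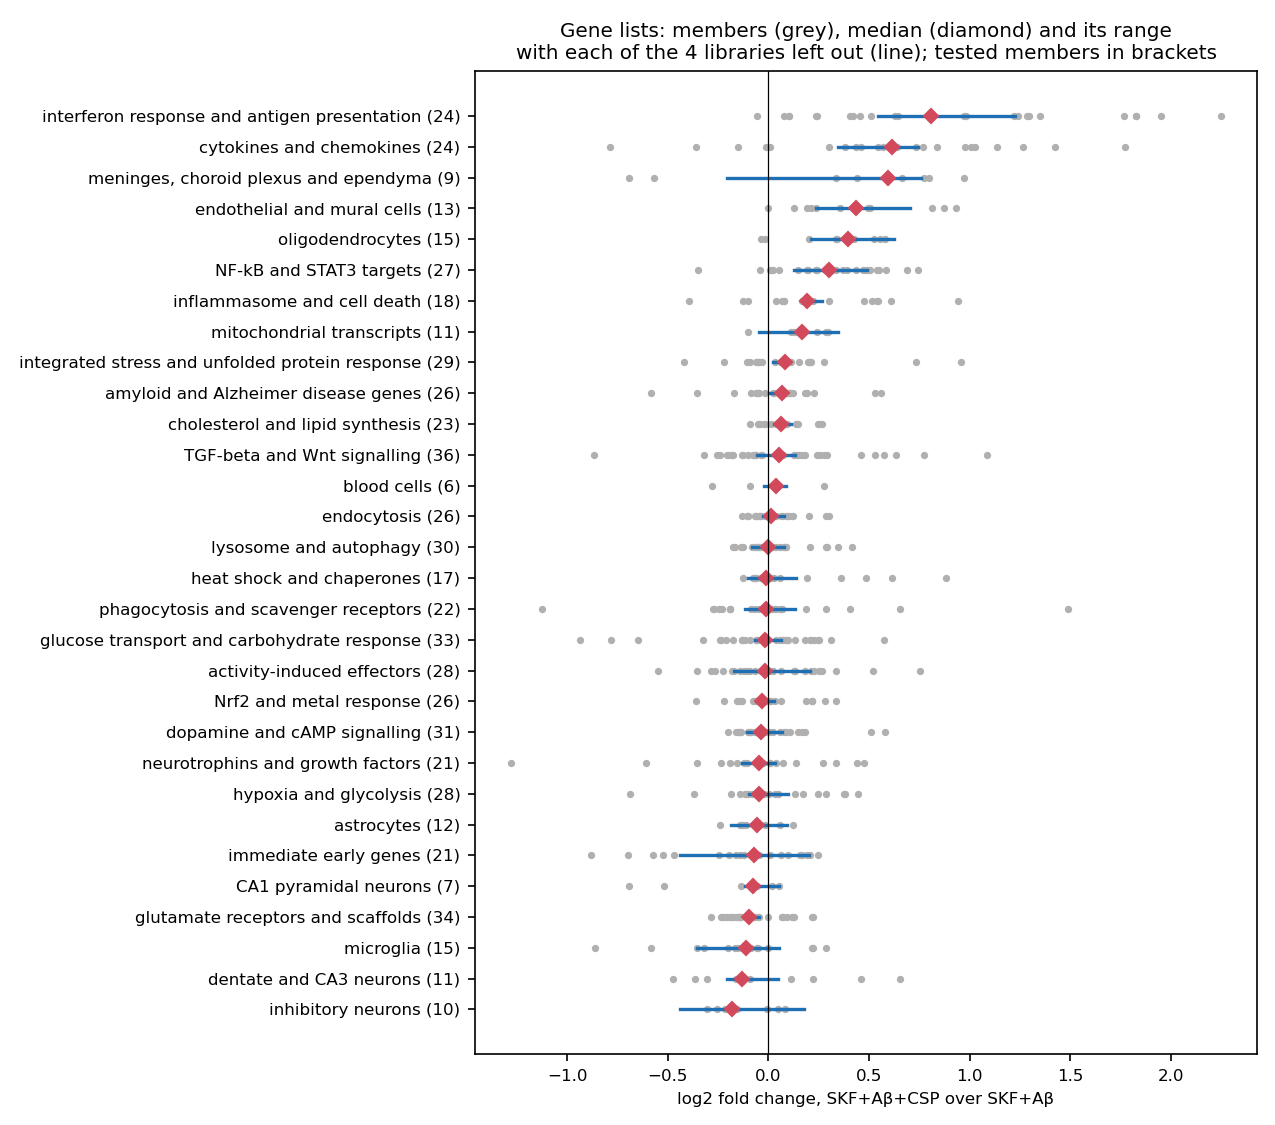
Log2 fold change of SKF+Aβ+CSP over SKF+Aβ for the tested members of 30 gene lists (grey points), their median (diamonds) and the range of that median with each of the 4 libraries left out in turn (lines), sorted by median. The medians of the interferon (0.81), cytokine (0.61), endothelial (0.43), oligodendrocyte (0.39) and NF-κB (0.30) lists are, with that of meninges, the highest, and the medians of the other lists lie between -0.18 and 0.19. The line of the meninges list crosses 0, and lines that stay on 1 side of 0 also occur among lists with medians near it.

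Markers of some cell types lay in the same direction as the interferon and cytokine genes. In bulk tissue, fewer cells of a type and less RNA per cell cannot be told apart. Endothelial and mural markers were above 0 in 12 of 13, with a median of 0.43 that ran from 0.24 to 0.70 as each library was left out, the highest without SKF+Aβ replicate 1. In 6 both CSP libraries were above both SKF+Aβ libraries and in 0 below, beside 14.3% and 12.9% of all genes. Their summed level was 306 and 261 CPM without CSP and 407 and 325 CPM with it. Cdh5, the cadherin of endothelial junctions, had the only p under 0.05 of the 13, beside 1.63% of all genes higher, at 26.5 and 22.8 against 50.3 and 39.9 CPM, a log2 fold change of 0.87. Kdr and Flt1, the VEGF receptors, had 0.81 and 0.35, whereas Pdgfrb, a pericyte receptor, had 0.00 with an interval from -0.42 to 0.41. Cldn5, a defining endothelial gene, had 0 counts in every library. The endothelial sum was also higher in SKF replicate 1 (362 CPM) than in replicate 2 (249 CPM), as the interferon sum was. The part of vascular cells in the interferon and cytokine values was not tested.

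Oligodendrocyte markers were above 0 in 13 of 15 with a median of 0.39, which was 0.62 without SKF+Aβ replicate 1 and 0.21 without replicate 2. In 9 both CSP libraries were above both SKF+Aβ libraries, beside 14.3% of all genes. Their summed level was 16592 and 11723 CPM in SKF+Aβ against 18430 and 18924 CPM in SKF+Aβ+CSP, so SKF+Aβ replicate 2 was the low library, and the other groups ran from 15760 to 26582 CPM. Sox10, the lineage factor, and Opalin, a myelin protein, had a p under 0.05, at 0.53 and 0.58, or 2 of 15 beside 1.63% of all genes higher. Sox10 was 0.34 without SKF+Aβ replicate 2. Markers of meninges, choroid plexus and ependyma had a median of 0.60 over 9 tested genes, but the collagens rested on 1 library. Col1a1 read 5.87 and 5.81 CPM without CSP and 4.84 and 18.5 CPM with it, and Col3a1 6.70 and 6.56 against 5.32 and 17.7 CPM. Without SKF+Aβ+CSP replicate 2 the median of that list was -0.21. Ptgds, prostaglandin D synthase of the leptomeninges and of oligodendrocytes, did not depend on it, at 67.2 and 69.2 against 97.5 and 109 CPM.

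The direction of the microglial markers rested on 1 library. Only 3 of 15 were above 0 and the median was -0.11, but it was -0.36 without SKF+Aβ replicate 1 and 0.05 without replicate 2. The summed level was 236 and 310 CPM without CSP against 268 and 234 CPM with it. P2ry12 and Cx3cr1, receptors of resting microglia, had -0.20 and -0.06 with intervals from -1.20 to 0.81 and from -1.24 to 1.13, so that a change of 1 unit lay inside both. Astrocyte markers had a median of -0.05 over 12 genes, all with intervals within 1 unit, and Gfap had -0.05. Among neuronal classes the medians were -0.07 over 7 CA1 genes, -0.13 over 11 dentate and CA3 genes and -0.18 over 10 inhibitory neuron genes. Without SKF+Aβ replicate 2 the medians were above 0 in these classes and in astrocytes, at 0.05, 0.05, 0.18 and 0.09. C1ql2, a synaptic organiser of dentate mossy fibres, had the only p under 0.05 of these, at 49.2 and 52.5 against 41.8 and 36.9 CPM. Its log2 fold change was -0.37, and 0.552% of all genes were lower at that p. Of blood markers 6 were tested with a median of 0.04. Cd3e, a T cell gene that did not pass the filter, had counts of 29 and 1 in SKF+Aβ and 0 and 0 in SKF+Aβ+CSP.

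**Figure D5:**
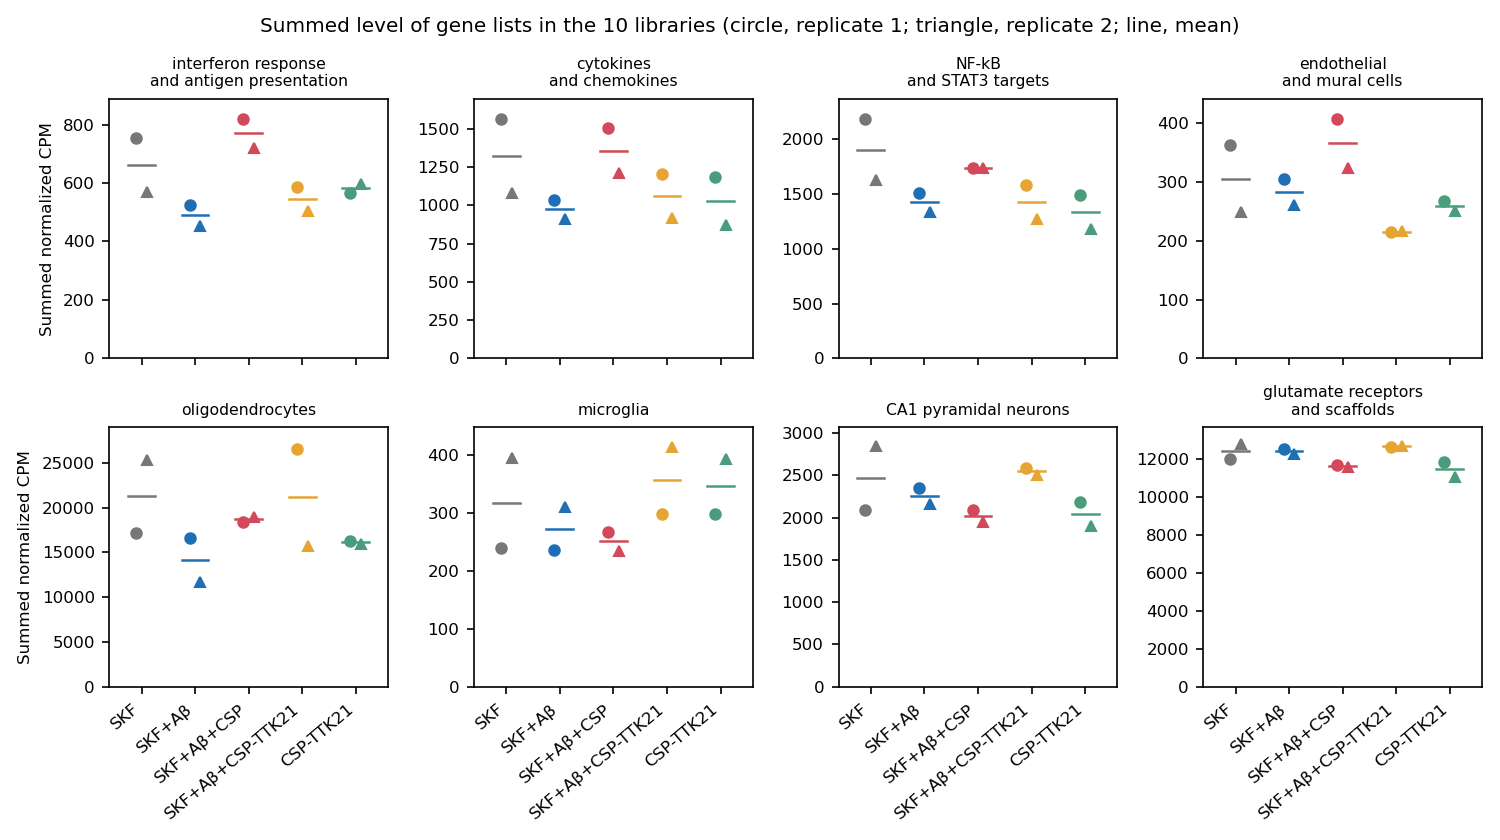
Summed normalized CPM of the tested members of 8 gene lists in each of the 10 libraries by group (circles, replicate 1; triangles, replicate 2; lines, group mean). Interferon, cytokine, NF-κB and endothelial sums are higher in both SKF+Aβ+CSP libraries than in both SKF+Aβ libraries, SKF replicate 1 reaches or passes the lower of these CSP libraries in each of the 4, and glutamate receptor sums lie between 11038 and 12807 CPM in all 10.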

How the data were processed

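RNA-seq counts of 10 libraries from 5 groups, each with 2 replicates by the sample labels, were used. The file deposited by the authors holds raw counts as whole numbers on rat Ensembl genes, not normalized and not pooled. The paper's methods name a stranded KAPA kit with rRNA removal, Trim Galore, Samtools rmdup, TopHat2 and Cufflinks, with Rnor_6.0 in one sentence and mm10 in another, while the submitters' processing notes name STAR, RSEM, HISAT2, Salmon and GRCh38. Which of these made the counts, and whether strand was used, is not given in the sources used here, so overlapping genes and near-identical copies are uncertain.

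Tests were run with edgeR 4.0.16 under R 4.3.3. Its filterByExpr by group kept 15032 of 32545 genes, TMM factors were used, and all 10 libraries entered 1 quasi-likelihood fit with group means, which gave a biological coefficient of variation of 0.136. The call needed a log2 fold change beyond 1.5 and a p-value under 0.05 after Benjamini-Hochberg adjustment. Intervals are the log2 fold change and its standard error at the fit's degrees of freedom, at 95%, and are approximate. The paper's Cuffdiff and unpaired test were replaced by this count test. Alternatives were a replicate block, only the 4 libraries, DESeq2 1.42.0, limma 3.58.1, RLE factors or library totals, no filter, a minimum of 10 counts per library, and leaving out each library. A fit without SKF replicate 1 and one of the 4 libraries with the block were added after seeing the data.

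Named genes are those called in either the fit without or that with the block, the 12 higher and 12 lower with the smallest p among non-overlapping genes of at least 1 CPM, 3 each way below it, list members with p under 0.05 or else the extremes, and the genes of the study's RT-PCR with its drug targets. Other genes named, such as Mertk, Txnip and Gria1, were chosen after their values were seen. The gene lists and the genes in them were chosen with earlier results of these data known. No set test was run. On simulated counts for this comparison with 14807 genes, 63 of 99 changed by a log2 of 1 reached an adjusted p under 0.05. So did 87 of 100 changed by 2 and 5 unchanged genes, and with none changed 0 of 14834 did. The simulated counts followed the fitted trend of spread, without scatter between genes about it. With none changed, 4.91% had an unadjusted p under 0.05, against 2.18% in the real libraries. The shares found in the simulation therefore do not carry over to these libraries. Promoter windows came from RefSeq. Results on some single genes are not reported here.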

Additional observations from a re-analysis of the deposited data

How the results depend on the processing

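The number of genes called was 0 by edgeR with all 10 libraries and also 0 with limma, RLE factors, library totals, at least 10 counts in every library, without SKF replicate 1, and with each of the 4 libraries left out (lowest 0, highest 0). It was 1 in the fit of only the 4 libraries (Ifit3), 1 with DESeq2 with its independent filtering and 1 without that filtering (Ifit2 in both). Without the filter on low counts it was 19, where the prior degrees of freedom of the fit became infinite. An unadjusted p under 0.05 gave 97 genes beyond a log2 fold change of 1 and 36 beyond 1.5. The share of higher genes among the 97 was 75.3%. It was 47.9% without SKF+Aβ replicate 2 (115 higher, 125 lower), 85.5% without SKF+Aβ replicate 1 (241 and 41), 60.3% without SKF+Aβ+CSP replicate 1 (70 and 46), 88.2% with at least 10 counts (30 and 4) and 61.6% without the filter (135 and 84), and the cause was not tested. Genes held within 1 log2 unit numbered between 9809 and 10076 with a library left out.

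The replicate numbers are not said to mark shared animals or days, and deviations of same-numbered libraries correlated at 0.0760 over genes, and the numbers were not taken as pairs. The summed level of the cytokine list was nevertheless higher in replicate 1 than in replicate 2 in each of the 5 groups, as were Ifit2, Rsad2, Il6 and Cxcl1. With the replicate number as a block 1 gene was called (Ifit2) and no other call changed, and with the block in the 4 libraries alone, chosen after seeing the data, 6 were (Ddx60, Ifit2, Ifit3, Rsad2, Rtp3 and Slfn3).

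Sign changes were checked in 81 genes. These are the leading and low-count genes, list members with a p under 0.05, and the RT-PCR and drug target genes. Other genes named above were not checked. Of the 81, 6 changed sign with a library left out, all with a log2 fold change whose interval includes 0. With each library left out in turn the value ran from -0.44 to 0.17 for Wnt10b (above 0 without SKF+Aβ replicate 1), from -0.22 to 0.12 for S100b (0.12 without SKF+Aβ replicate 2, 0.11 without SKF+Aβ+CSP replicate 2), from -0.011 (without SKF+Aβ replicate 1) to 0.060 for App, from -0.062 to 0.0060 (without SKF+Aβ+CSP replicate 2) for Actb, from -0.046 to 1.35 for Drd5 and from -0.098 to 0.014 for Crebbp, the last 2 changing sign without SKF+Aβ+CSP replicate 1. Median log2 fold changes with a library left out ran from 0.55 to 1.23 for the interferon list, 0.35 to 0.74 for cytokines, 0.13 to 0.49 for NF-κB targets, -0.21 to 0.76 for meninges and -0.44 to 0.20 for immediate early genes. Values under 3 counts per library, or 0.444 CPM without TMM scaling at the lowest depth, were taken as near the floor. That limit was set and was not tested.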
